A study of Mus musculus with 12 samples.

Results

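The CXC chemokines are small secreted proteins that share a pair of cysteines parted by 1 residue and that direct the movement of leukocytes and progenitor cells. The genes described are Cxcl1, Cxcl2, Cxcl5, Cxcl9, Cxcl10, Cxcl12, Cxcl14 and Cxcl16, 8 in all, taken by symbol. Of these, 7 had a value in the normalized expression table, on 11 of its 21004 probes, out of 15434 gene symbols. Cxcl5 was not analysed here, because no probe carrying that symbol was found. Cxcl2 and Cxcl14 each had 2 probes and Cxcl12 had 3, which are numbered from the highest mean over all arrays. A further 4 probes for Cxcl10, Cxcl12 and Cxcl16 lie outside the normalized table and were detected on 0 arrays, with a highest signal of 182.1.

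RNA was taken from hip cartilage of C57BL6 mice aged 4 to 6 weeks by the labels, either wildtype (WT) or knockout (KO) for Mapk9, which encodes the stress kinase JNK2, and measured on Illumina mouse BeadChips. Each genotype had 3 control and 3 injured samples, 12 arrays in all, and each biological replicate combined 6 hips from 3 mice per the methods. Injury was avulsion of the femoral epiphysis, the cap of the thigh bone. Control hips were snap-frozen, by the methods at 0 h after the same avulsion, whereas injured hips were cultured for 4 h. Injury and culture therefore cannot be told apart in any comparison below, where values before injury are those of the control hips. The tissue was a bulk sample, and fewer cells of a type and less RNA per cell cannot be told apart either. Between 16930 and 18969 probes were detected per array (detection p under 0.05, the p being the share of negative control probes that were brighter). The brighter Mapk9 probe in the table fell from a mean of 10.76 in WT control hips to 9.19 in KO control hips (log2 difference -1.57, limma adjusted p = 0.0151). It was still detected on every KO array. The dimmer probe was detected on 3 of 3 WT control arrays, on 1 of 3 WT injured arrays and on 0 of 6 KO arrays. Where the probes lie relative to the deleted part of the gene is not given in the sources used here.

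As background, CXC ligands fall into groups by receptor and by inducer. Cxcl1, Cxcl2 and Cxcl5 carry a glutamate-leucine-arginine motif before the first cysteine, bind Cxcr2 and draw neutrophils, and their genes are classic targets of NF-kB downstream of interleukin 1 and tumor necrosis factor. Cxcl9 and Cxcl10 lack that motif, are induced by interferons and bind Cxcr3 on activated T cells and natural killer cells. Cxcl12 binds Cxcr4 and the scavenging receptor Ackr3, and stromal cells of the bone marrow use it to retain blood progenitors. Cxcl14 is made constitutively in many epithelia and connective tissues and its signaling receptor is debated, while Cxcl16 is held in the membrane until it is shed and binds Cxcr6.

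The gene-proximal sequences of 5 members are shown, to show which of them hold the NF-kB consensus and where. They are the 250 bases before the start of the gene (RefSeq, GRCm38.p6, 5′ to 3′ on the strand of the gene), at chr5:90890995-90891244 and chr5:90903649-90903898 on the plus strand, chr5:92348890-92349139 and chr5:92328080-92328329 on the minus strand, and chr6:117168285-117168534 on the plus strand. Capitals mark matches to the NF-kB consensus of 10 bases on either strand.
Cxcl1: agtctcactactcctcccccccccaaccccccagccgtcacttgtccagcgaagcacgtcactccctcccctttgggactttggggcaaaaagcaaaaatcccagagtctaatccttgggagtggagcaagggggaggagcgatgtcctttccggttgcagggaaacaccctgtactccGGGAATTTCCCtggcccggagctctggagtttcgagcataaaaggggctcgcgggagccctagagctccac
Cxcl2: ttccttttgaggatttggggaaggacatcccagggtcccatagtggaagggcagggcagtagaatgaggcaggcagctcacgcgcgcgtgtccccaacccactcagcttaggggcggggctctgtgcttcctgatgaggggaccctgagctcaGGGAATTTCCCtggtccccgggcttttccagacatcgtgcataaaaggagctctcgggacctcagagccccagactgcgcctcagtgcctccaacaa
Cxcl10: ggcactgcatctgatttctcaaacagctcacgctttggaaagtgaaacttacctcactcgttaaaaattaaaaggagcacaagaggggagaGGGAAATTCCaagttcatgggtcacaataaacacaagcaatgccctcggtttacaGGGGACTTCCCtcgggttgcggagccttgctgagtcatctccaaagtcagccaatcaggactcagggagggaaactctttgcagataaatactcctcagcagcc
Cxcl9: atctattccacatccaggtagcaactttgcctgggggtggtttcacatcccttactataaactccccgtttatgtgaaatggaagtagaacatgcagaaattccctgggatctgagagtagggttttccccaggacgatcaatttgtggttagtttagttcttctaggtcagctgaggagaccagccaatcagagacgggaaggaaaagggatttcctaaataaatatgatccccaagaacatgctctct
Cxcl12: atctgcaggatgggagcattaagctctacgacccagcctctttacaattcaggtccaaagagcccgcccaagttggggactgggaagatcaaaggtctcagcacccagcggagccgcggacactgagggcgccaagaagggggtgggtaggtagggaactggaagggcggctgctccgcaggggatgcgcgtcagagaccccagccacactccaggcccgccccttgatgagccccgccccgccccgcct
Cxcl1, Cxcl2, Cxcl9 and Cxcl10 all lie on chromosome 5, and Cxcl1 and Cxcl2 hold the same 11 letters as overlapping matches on both strands. Promoter windows were at hand for 6 members, Cxcl14 being the sixth, and the search covered 300 bases of each, the 250 shown and the 50 that follow. The Cxcl14 window, which is not shown, lies inside the listed span of its gene and not before the start of that span. The NF-kB consensus was found in Cxcl1, Cxcl2 and Cxcl10, and in 8.46% of 32851 promoter windows of that length. The AP-1 motif TGANTCA (both strands, 7.81% of windows) was found in Cxcl10 and Cxcl9, in the latter after the start. The core of the interferon-stimulated response element, 2 copies of GAAA with 2 bases between them (both strands, 3.44% of windows), was found in Cxcl10 and Cxcl14. These are matches of letters, not measured binding, and none of the 3 motifs was matched in the Cxcl12 window.

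Cxcl1 went from the background of the array to a high signal after injury in both genotypes. In WT control hips its log2 normalized signal was 5.24, 3.69 and 5.71, below detection on all 3 arrays, and in WT injured hips it was 12.17, 13.18 and 12.11. KO hips gave 5.64, 5.93 and 5.21 before injury, detected on 1 array, and 12.46, 12.68 and 12.11 after injury. Control and injured arrays did not overlap in either genotype. The change was 7.61 ± 0.48 on the log2 scale in WT (mean ± SE, 3 against 3 arrays, limma adjusted p = 6.07e-06), and since the control arrays only give a bound, Cxcl1 was at least 99.8-fold higher after injury. In KO hips the change was 6.82 ± 0.23 (limma adjusted p = 6.22e-08), or 87.0-fold with the 2 undetected arrays set at the lowest detected signal. Under quantile normalization without background correction the changes were 5.25 and 5.13, and without WT control replicate 2 the WT change was 7.01. The signal before background correction rose from between 101.4 and 211.0 to between 4561 and 7107 in WT hips.

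Cxcl2, a close relative of Cxcl1 with the same receptor, rose on both of its probes in both genotypes. Probe 1 gave 3.85, 4.85 and 5.03 in WT control hips and 10.33, 10.69 and 10.46 in WT injured hips. KO hips gave 4.98, 4.35 and 3.48 before injury and 10.35, 10.44 and 10.36 after it. None of the 6 control arrays detected either probe, and all 6 injured arrays detected both. Probe 2 gave 4.09, 4.2 and 3.26 against 9.53, 10.27 and 10.01 in WT hips, and 3.86, 3.87 and 3.62 against 9.11, 9.69 and 10 in KO hips. The rise was at least 25.1-fold in WT and at least 21.9-fold in KO by probe 1, and at least 17.0-fold and at least 12.7-fold by probe 2 (limma adjusted p from 8.51e-08 to 1.9e-06). Under quantile normalization without background correction the changes lay between 2.90 and 3.49. The probes lie at different places on the transcript, at bases 259 and 808 as annotated, and followed each other across the 12 arrays (Pearson r = 0.984, a description over arrays that differ mainly in condition).

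**Figure D1:**
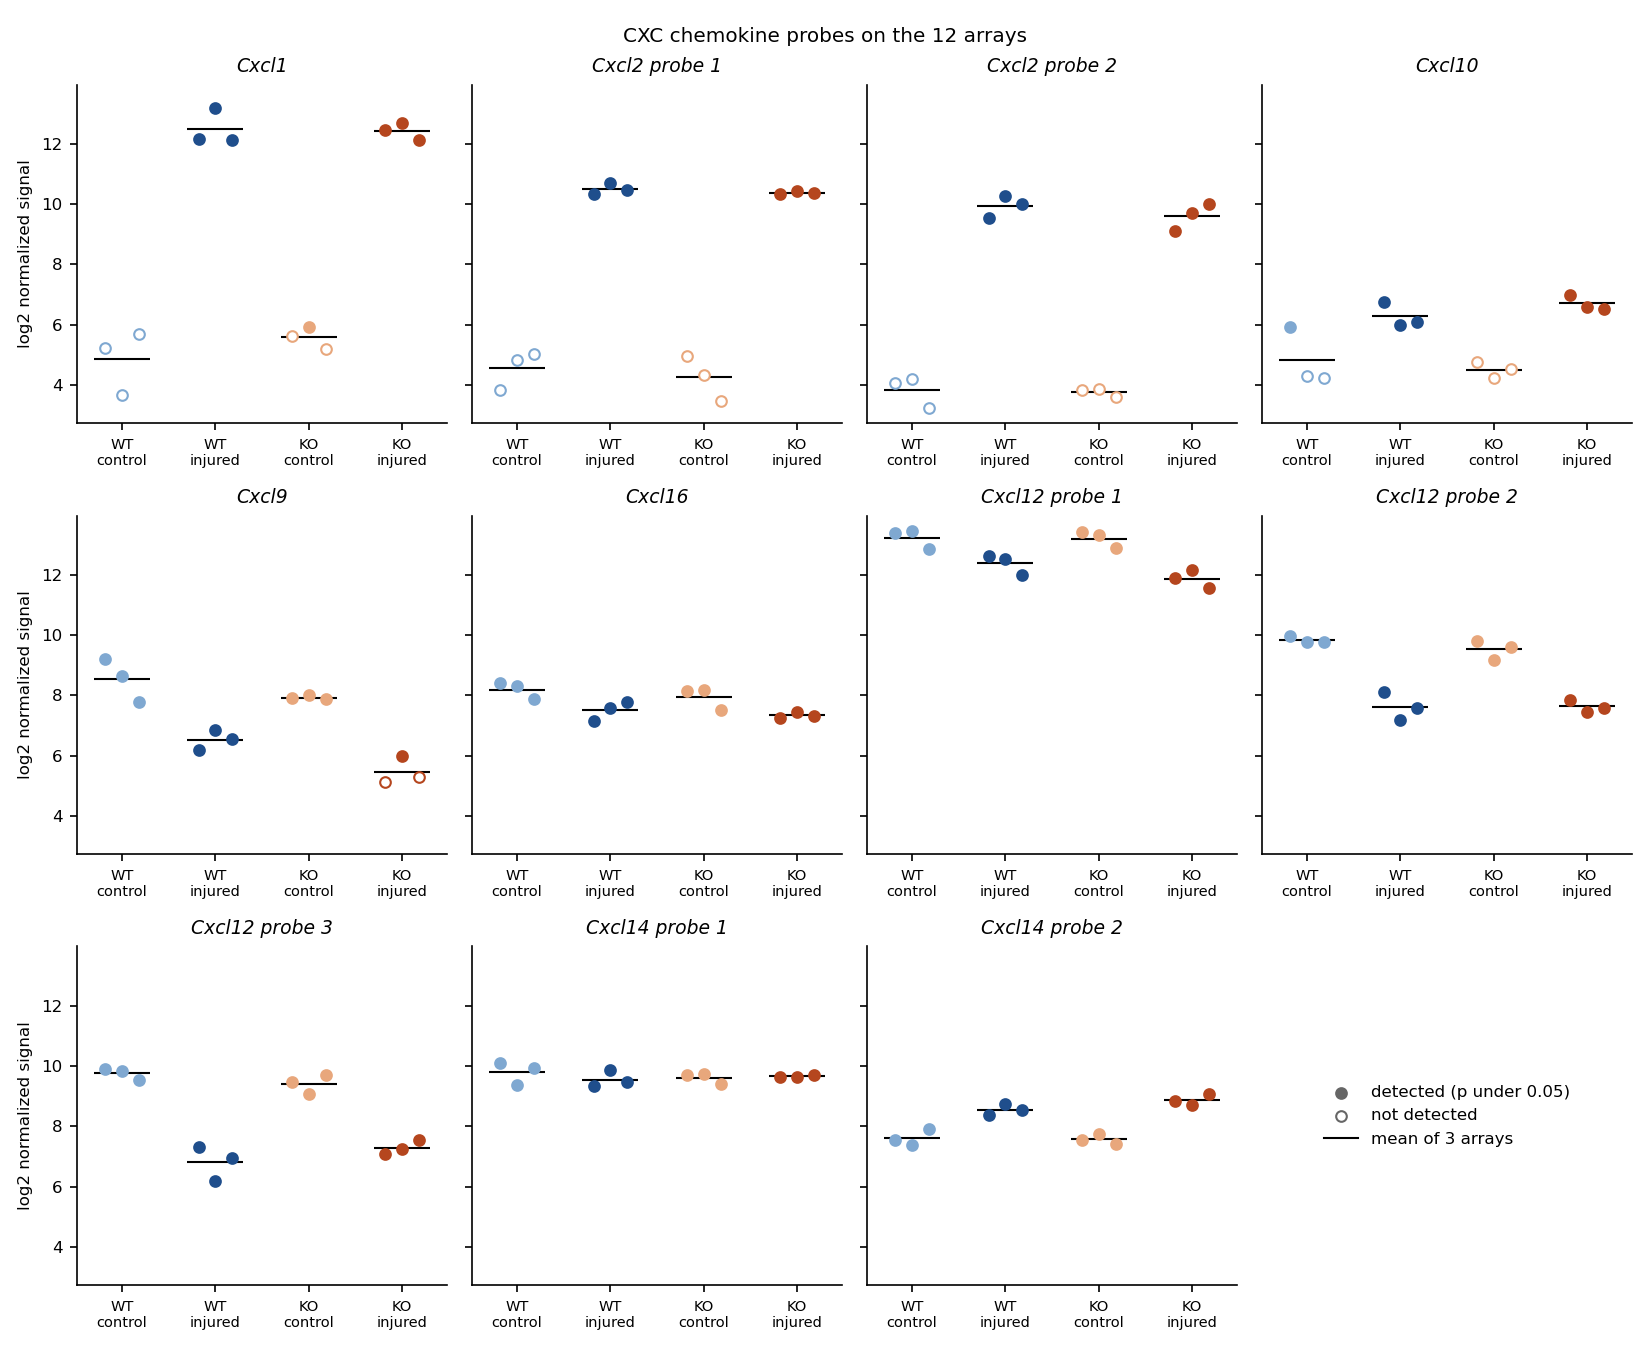
The log2 normalized signal (vertical axis) of each of the 11 CXC chemokine probes on every array, in WT and KO hips before and after injury; filled points were detected, open points were not, and lines are means of 3 arrays. Cxcl1 and Cxcl2 move from points between 3.26 and 5.93, open but for 1, to filled points of at least 9.11, Cxcl9 and Cxcl12 move down, and the KO points of Cxcl9 after injury lie below the WT points.

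Cxcr1, Cxcr2 and Ackr3, receptors for some of these ligands, rose after injury in both genotypes. Of 8 CXC receptor genes listed, 6 had a probe in the table. Cxcr2, the receptor for Cxcl1 and Cxcl2 on neutrophils, rose from a mean of 7.45 to 9.90 in WT (change 2.45 ± 0.28 SE, limma adjusted p = 0.00024) and from 8.05 to 10.30 in KO (2.25 ± 0.19 SE, limma adjusted p = 7.62e-06). Cxcr1, a related receptor, was undetected on all control arrays and detected on all injured ones, at least 2.61-fold higher in WT and at least 2.95-fold in KO. Ackr3, which binds Cxcl12 and removes it, rose by 1.33 ± 0.20 and 1.22 ± 0.21 (SE). Cxcr4, the signaling receptor for Cxcl12, gave changes of 0.62 ± 0.27 in WT and 0.25 ± 0.19 in KO (SE), which did not pass the test. Ackr1, an endothelial and erythroid chemokine sink, gave -0.45 in WT and -0.98 in KO and did not reach the fold limit. Cxcr5, a B cell receptor, passed in WT by 1 of its 2 probes (1.07), which only 1 injured array detected and whose fold was 0.853 with undetected arrays set to the lowest detected signal, and gave 0.47 by the other. Cxcr3 and Cxcr6, the receptors for Cxcl9, Cxcl10 and Cxcl16, lie outside the table and were undetected on every array. Of the 6 receptors in the table, then, 3 rose in each genotype and 0 fell, the WT call of Cxcr5 not being counted. This is against 7.55% of all probes called higher in WT and 9.59% in KO. The median change of the list was 0.97 in WT and 0.74 in KO, against -0.02 over all probes.

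Among CXC ligands that are not members, platelet factor 4 (Pf4) gave a change of 0.24 in WT and 0.35 in KO, and the platelet basic protein (Ppbp) gave 0.45 and 0.27, none past the test. Cxcl13, the B cell ligand, was in the table but undetected on all arrays. The other 4 ligands listed (Cxcl3, Cxcl11, Cxcl15 and Cxcl17) lie outside the table and were undetected. Of 16 genes for cytokines and NF-kB factors that act upstream of Cxcl1 and Cxcl2 or are induced with them, all 16 had a probe in the table, 9 rose in WT and 12 in KO, against 7.55% and 9.59% of all probes, and 0 fell. Il1b, the secreted interleukin, rose by 3.45 ± 0.26 in WT and 3.26 ± 0.21 in KO (SE). Tnf was undetected on all control arrays and higher on injured ones by at least 1.96-fold (WT) and 1.78-fold (KO) on its brighter probe, and by at least 2.15-fold and 1.95-fold on the dimmer one. Nfkbiz, an NF-kB cofactor, rose by 2.21 and 3.17, and Zfp36, which shortens the life of chemokine and cytokine messages, by 2.69 and 2.86. The WT count includes Il6, which was below detection on all WT arrays and so carries no fold. The KO count includes Il1a, Il6 and Il17ra, each detected on 2 of 3 injured arrays, whose folds came to 1.1, 1.07 and 0.998 with undetected arrays set to the lowest detected signal. The median change of the list was 1.37 in WT and 1.38 in KO.

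**Figure D2:**
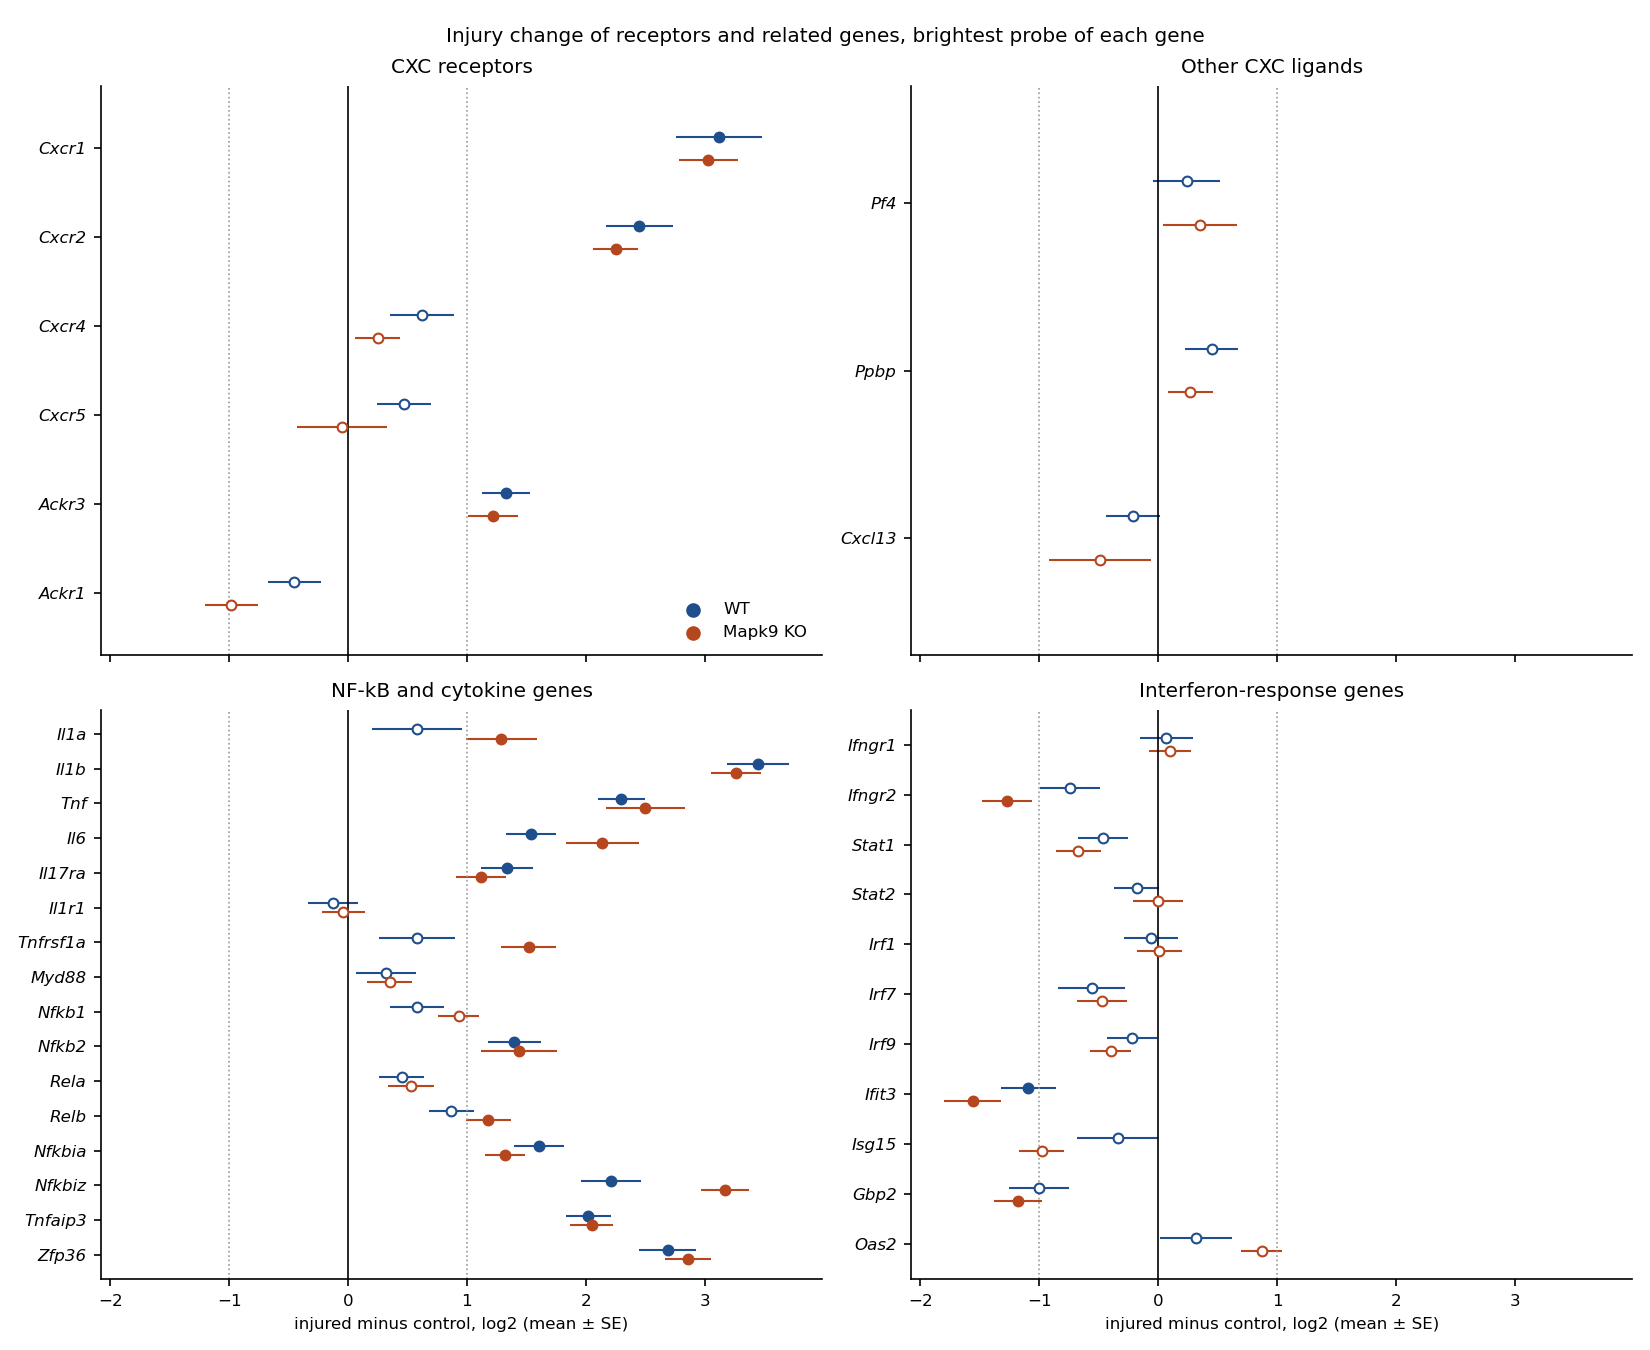
Injury change (horizontal axis, injured minus control on the log2 scale, mean ± SE of the limma fit on 3 against 3 arrays) of the brightest probe of each receptor, other CXC ligand, NF-kB or cytokine gene and interferon-response gene in WT and KO hips; filled points passed the test and dotted lines mark a fold of 2. Cxcr1, Cxcr2 and Ackr3 and most NF-kB genes lie right of the fold limit in both genotypes, and interferon-response genes lie mostly left of 0.

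The interferon-associated ligands Cxcl9 and Cxcl10 moved in opposite directions. Cxcl9 gave 9.20, 8.64 and 7.78 in WT control hips and 6.18, 6.85 and 6.57 in WT injured hips. In KO hips it gave 7.92, 8.0 and 7.87 before injury and 5.13, 6.01 and 5.29 after it, where only 1 array detected it. Every injured array lay below every control array of its genotype. The change was -2.0 ± 0.34 in WT (SE, limma adjusted p = 0.00217), a 4.01-fold lower level, and -2.45 ± 0.23 in KO (SE, limma adjusted p = 1.68e-05). With the 2 undetected KO arrays at the lowest detected signal the KO fall was 3.98-fold. Under quantile normalization without background correction both changes were -1.19. The methods' t-test after adjustment did not call the WT change (adjusted p = 0.0716).

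Another Cxcl10 probe lies outside the table and was undetected on every array. On its probe in the table, Cxcl10 was close to the background throughout. It gave 5.94, 4.32 and 4.25 in WT control hips, detected on 1 array, and 6.77, 5.98 and 6.09 in WT injured hips, detected on all 3. In KO hips it was undetected at 4.76, 4.25 and 4.53 before injury and detected at 7.0, 6.60 and 6.53 after it. The injured arrays lay above the control arrays in both genotypes, in WT by as little as 5.98 against 5.94. The change was 1.44 ± 0.42 in WT (SE, limma adjusted p = 0.0296) and 2.20 ± 0.20 in KO (SE, limma adjusted p = 1.47e-05), where the level was at least 1.71-fold higher after injury. In WT the fold was 1.25, under the limit, with the 2 undetected control arrays set to the lowest detected signal. When 1 array was left out at a time, the WT call was lost for control replicates 2 and 3 and for injured replicates 1 and 3 (adjusted p from 0.0552 to 0.104), and it was also lost under quantile normalization with normexp correction or with none. In the KO fit it was lost under quantile normalization without background correction (change 0.72).

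Of 16 interferon genes listed as partners of Cxcl9 and Cxcl10, 11 had a probe in the table, 1 fell in WT, 3 fell in KO and 0 rose, where 7.14% of all probes fell in WT and 9.14% in KO. Ifit3, an interferon-induced antiviral gene, fell by 1.09 in WT and by 1.56 in KO on the log2 scale. Gbp2, an interferon-gamma target, fell by 1.18 in KO and gave -1.0 in WT, which did not pass the fold limit. Ifngr2, a chain of the interferon-gamma receptor, fell by 1.27 in KO and gave -0.74 in WT. The median of the list was -0.34 in WT and -0.47 in KO. Ifng, Ifnb1, Ifnar1, Ifit1 and Mx1 lie outside the table.

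Cxcl12 fell after injury, by an amount that depended on the probe. Probe 1 gave 13.38, 13.45 and 12.84 in WT control hips and 12.61, 12.53 and 11.99 in WT injured hips. The KO values were 13.40, 13.30 and 12.87 before injury and 11.89, 12.17 and 11.55 after it. The groups did not overlap, but the WT change of -0.85 ± 0.25 (SE, limma adjusted p = 0.0308) stayed short of the fold limit, while the KO change of -1.32 ± 0.22 (SE, limma adjusted p = 0.000741) passed it. The WT change passed the limit under both other normalizations (-1.11 and -1.10) and without WT control replicate 3 (-1.04). It stayed short of it with array medians subtracted (-0.8), and its adjusted p rose above 0.05 without control replicate 1 or 2 or injured replicate 2 or 3 (up to 0.128) and by the methods' t-test (0.13).

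Probe 2 of Cxcl12, listed under the accession of transcript variant 3, gave 9.97, 9.77 and 9.77 in WT control hips against 8.10, 7.20 and 7.6 after injury. The KO values were 9.81, 9.19 and 9.59 against 7.86, 7.45 and 7.6. Probe 3, listed under that of transcript variant 1, gave 9.90, 9.85 and 9.55 against 7.32, 6.19 and 6.95 in WT, and 9.46, 9.08 and 9.71 against 7.10, 7.27 and 7.54 in KO. All 12 arrays detected every Cxcl12 probe in the table, and injured arrays lay below control arrays on each. Probe 2 fell by 2.21 ± 0.25 in WT and by 1.89 ± 0.21 in KO, and probe 3 by 2.95 ± 0.28 and 2.11 ± 0.21 (SE, limma adjusted p from 2.47e-05 to 0.000203). In WT the 95% interval of probe 1, from -1.40 to -0.29, does not reach those of probe 2 (-2.75 to -1.66) and probe 3 (-3.58 to -2.31). In KO the intervals of probe 1 (-1.80 to -0.84) and probe 2 (-2.35 to -1.43) overlap. The difference between probes was not tested. Probe 2 is of another probe type (A) in the deposited annotation than probes 1 and 3 (S), and none is taken here to measure a single variant. Probes 2 and 3 correlated at r = 0.977 over the 12 arrays, and probe 1 correlated with them at 0.844 and 0.784.

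Of 8 genes that cleave CXC ligands or bind them at the cell surface, 7 had a probe in the table. Dpp4, a peptidase that trims the amino end of Cxcl12, rose in WT by 1.04 ± 0.24 (SE) and gave 0.45 in KO. Mmp2, a protease that also cleaves Cxcl12, fell in KO by 1.21 ± 0.18 (SE) and gave -0.67 in WT. Sdc1, a heparan sulfate proteoglycan, passed in WT by its dimmer probe alone, which was undetected on every WT injured array. That probe was at least 2.02-fold lower in WT and gave 0.47 in KO, the other direction. The brighter probe gave -0.64 in WT and -0.87 in KO. The median change of the list was -0.13 in WT and -0.09 in KO.

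The 2 probes of Cxcl14 did not move together. Probe 1 gave 10.09, 9.38 and 9.93 in WT control hips and 9.33, 9.86 and 9.46 in WT injured hips, with overlap. In KO hips it gave 9.70, 9.75 and 9.40 against 9.63, 9.65 and 9.71, also with overlap. Its changes were -0.24 (95% interval -0.79 to 0.30) in WT and 0.05 (-0.34 to 0.43) in KO. Probe 2 gave 7.54, 7.38 and 7.93 in WT control hips and 8.38, 8.76 and 8.54 in WT injured hips. In KO hips it gave 7.54, 7.75 and 7.43 against 8.85, 8.72 and 9.07. Here the injured arrays lay above the control arrays in both genotypes, and the change was 0.94 ± 0.22 in WT (SE, limma adjusted p = 0.0108, under the fold limit) and 1.31 ± 0.18 in KO (SE, limma adjusted p = 0.000232, past it). In WT it passed the limit when control replicate 3 (1.10) or injured replicate 1 (1.03) was left out. The adjusted p rose to 0.0529 without injured replicate 2 and to 0.061 by the methods' t-test, and the change was 0.67 under quantile normalization without background correction. Both probes are annotated to the same transcript, at bases 1588 and 602, and correlated at r = 0.0111 over the 12 arrays, so no direction is given for Cxcl14 as a gene.

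Cxcl16, the membrane-bound ligand, was somewhat lower after injury without passing the test. It gave 8.4, 8.30 and 7.89 in WT control hips and 7.16, 7.57 and 7.79 in WT injured hips. In the KO it gave 8.14, 8.19 and 7.53 before injury and 7.24, 7.46 and 7.33 after it. The arrays did not overlap within either genotype, though the margin was 7.79 against 7.89 in WT. The change was -0.69 (95% interval -1.22 to -0.17, limma adjusted p = 0.0561) in WT and -0.61 (-1.07 to -0.15, limma adjusted p = 0.0401) in KO, where it missed the fold limit.

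**Figure D3:**
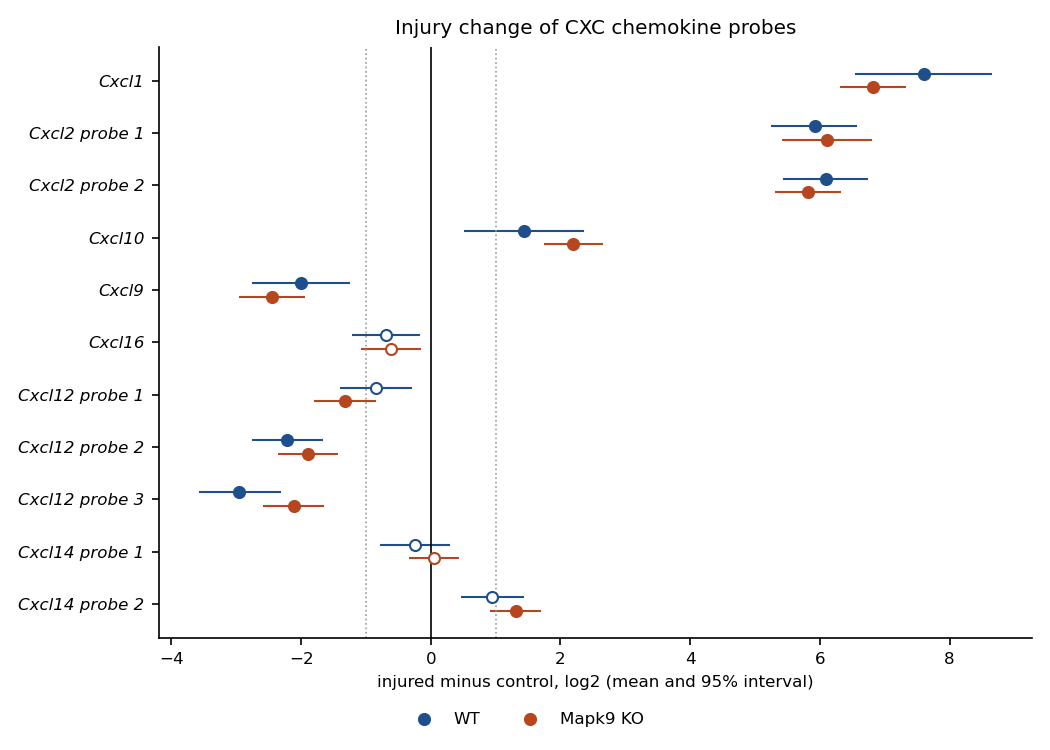
Injury change (horizontal axis, injured minus control on the log2 scale) of the 11 CXC chemokine probes in WT and KO hips; points are limma estimates from 3 against 3 arrays, bars are 95% intervals, filled points passed the test and dotted lines mark a fold of 2. Cxcl1 and Cxcl2 lie between 5.82 and 7.61, Cxcl10 between 1.44 and 2.20, and Cxcl9 and Cxcl12 left of 0, with WT and KO intervals overlapping at every probe.

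In counts of probes, 4 of 11 rose in WT (Cxcl1, both Cxcl2 probes and Cxcl10), against 7.55% of all probes, and 3 fell (Cxcl9 and 2 of Cxcl12), against 7.14%. In KO, 5 of 11 rose, Cxcl14 probe 2 being the addition, against 9.59% of all probes, and 4 fell, with all Cxcl12 probes, against 9.14%. Probes of a gene are not independent, and by gene 3 rose and 2 fell in each genotype, leaving out Cxcl14, whose probes disagree. The genes that rose include Cxcl10, which is near background. With undetected arrays set to the lowest detected signal its fold was 1.25 in WT and 1.71 in KO, both under the fold limit. The median over the brightest probes of the 7 genes, -0.24 in WT and 0.05 in KO, was near that of all probes (-0.02), since members moved both ways.

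The genotypes were then compared directly. Between control hips, 0 of 11 probes differed past the test, against 0.119% of all probes, and between injured hips 0 of 11, against 0.181%. The estimates for KO minus WT in control hips ran from -0.61 (Cxcl9) to 0.72 (Cxcl1), the latter between groups mostly below detection. In injured hips Cxcl1 differed by -0.07 (95% interval -0.71 to 0.56) and Cxcl2 probe 1 by -0.11 (-0.47 to 0.25), intervals that leave out a fold of 2 in either direction. For the difference between the injury changes, 0 of 11 probes passed, against 0.0% of all probes by limma, where 2088 of all probes had an unadjusted p under 0.05. With the replicate number as a block 112 of all probes passed, and still 0 of the 11. The intervals of these differences are wide, as for Cxcl1 (-2.08 to 0.50) and Cxcl10 (-0.37 to 1.87). Cxcl12 probe 3 had an interval above 0 (0.03 to 1.63, unadjusted p = 0.0425, limma adjusted p = 0.48). Probe 2 of Cxcl12 gave 0.31 (-0.39 to 1.02) and probe 1 gave -0.48 (-1.2 to 0.25), so its probes differ in sign. Between injured hips, probe 1 gave -0.51 for KO minus WT (-1.0 to -0.01, limma adjusted p = 0.385).

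The member whose genotype difference came nearest to the threshold was Cxcl9 in injured hips, lower in KO by 1.06 ± 0.26 (log2 difference -1.06 ± 0.26 SE, limma adjusted p = 0.21). The 3 KO arrays (5.13, 6.01 and 5.29) all lay below the 3 WT arrays (6.18, 6.85 and 6.57). By replicate number the differences were -1.05, -0.84 and -1.29, and with the replicate number as a block the difference passed the test (limma adjusted p = 0.0376). Only 1 of the 3 KO arrays detected Cxcl9, so its level in the other 2 is not well above background. With these set to the lowest detected signal the fold was 1.51 against 2.08 as measured, and under quantile normalization without background correction the log2 difference was -0.42. In the same injured arrays the median difference of the 11 macrophage markers was -0.25, against -0.04 over all probes, with list means between 8.26 and 8.60 in KO and between 8.49 and 8.94 in WT. None of the 11 passed the test (C1qa -0.98, limma adjusted p = 0.139; C1qb -0.69, limma adjusted p = 0.277). The 11 interferon partners had a median of -0.33, and 0 passed (Isg15 -0.65, limma adjusted p = 0.261). The part of either list in the Cxcl9 difference was not tested. In control hips the differences by replicate number were -1.28, -0.64 and 0.09, and the difference between the injury changes was -0.45 (95% interval -1.41 to 0.51), which did not pass with or without the block.

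**Figure D4:**
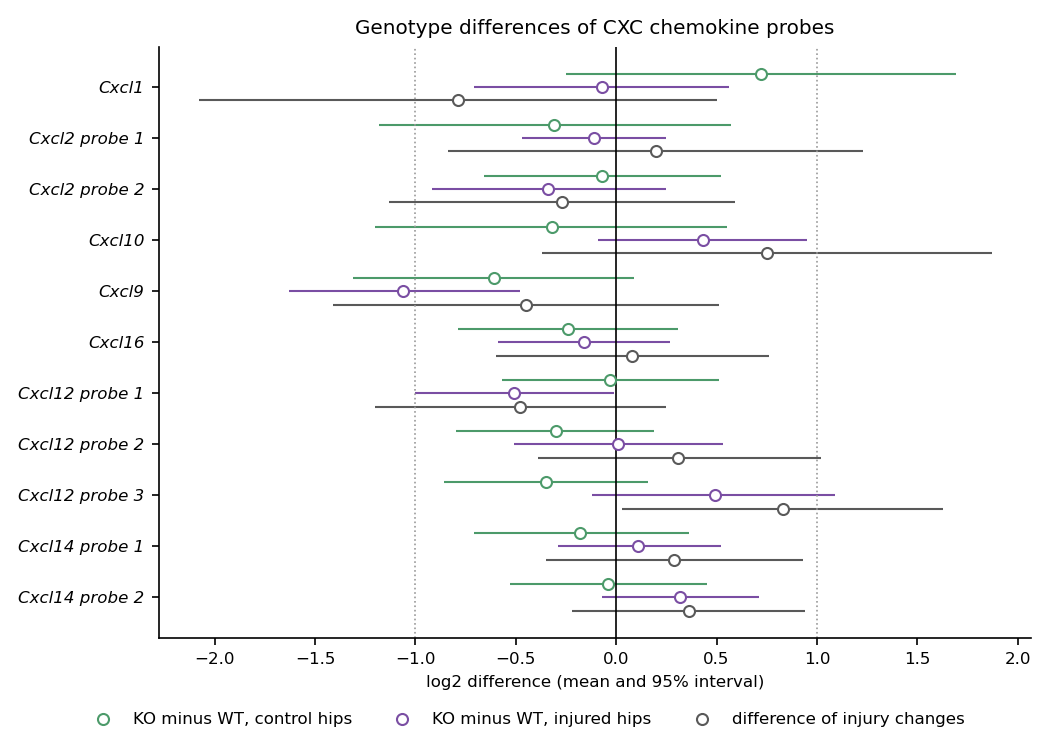
Log2 differences between genotypes (horizontal axis) for the 11 CXC chemokine probes in control hips, in injured hips and between the injury changes, with 95% intervals of the limma fits; open points did not pass the test and dotted lines mark a fold of 2. The interval of Cxcl9 in injured hips (-1.63 to -0.48) lies below 0, and the intervals of the injury-change difference are the widest for Cxcl1 and Cxcl10.

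Markers of cell types that a hip sample can hold were counted in the same arrays. A gene was counted as risen or fallen where any of its probes passed the test, here and in the gene lists above. The shares beside the counts are of single probes, so genes with several probes had more chances to be counted. Of 12 neutrophil markers, 10 had a probe in the table, and 7 rose and 0 fell in each genotype, against 7.55% of all probes called higher in WT and 9.59% in KO. By the brightest probe of each gene 5 rose in each genotype, since those of Ltf (0.39 in WT and -0.20 in KO) and Mpo (0.67 and 0.11) did not pass. The mean level of the list went from between 11.92 and 12.57 in WT control hips to between 13.33 and 13.56 in WT injured hips, and from 12.41 to 12.71 up to 13.07 to 13.54 in KO. Elane and Mpo, granule enzymes of young neutrophils, were detected on all arrays, and Mmp8 lies outside the table and was undetected. These levels rose in the same arrays as Cxcl1, Cxcl2, Cxcr1 and Cxcr2, and their part in those results was not tested.

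Of 11 macrophage markers, all with a probe in the table, 7 fell in WT and 8 in KO, against 7.14% and 9.14% of all probes, among them Csf1r and the complement genes C1qa, C1qb and C1qc, while Cd14 and, by the dimmer of its probes, Lyz2 rose in both. The mean of the list went from between 9.21 and 9.52 to between 8.49 and 8.94 in WT and from 9.29 to 9.54 down to 8.26 to 8.60 in KO. Macrophages are a common source of Cxcl9, and the part of this shift in the fall of Cxcl9 was not tested. Of 6 markers of marrow stroma, a main source of Cxcl12, 5 had a probe in the table, 1 fell in WT (Ebf3) and 3 in KO (Adipoq, Ebf3 and Vcam1), against the same shares of all probes, and Lepr was undetected. The mean of the list went from between 9.61 and 9.85 to between 8.92 and 9.17 in WT and from 9.74 to 9.86 down to 8.93 to 9.05 in KO, and its part in the fall of Cxcl12 was not tested.

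Of the 12 chondrocyte markers, 10 had a probe in the table, 6 rose in WT and 7 in KO, against 7.55% and 9.59% of all probes, and 1 fell in WT by its dimmest probe (Col11a1), against 7.14%. The mean rose from between 11.06 and 11.62 to between 12.48 and 12.75 in WT. All 10 skeletal muscle markers were in the table, and 9 fell in WT and 10 in KO, against 7.14% and 9.14% of all probes, from a mean between 11.76 and 12.94 to between 8.81 and 10.86 in WT and from 13.09 to 13.60 down to 9.32 to 10.62 in KO. Endothelial markers (1 of 10 rose in WT, 0 in KO), osteoblast markers (1 rose and 2 fell of 7 in WT, 1 and 3 in KO) and erythroid markers (1 of 5 fell in each genotype) were also counted, against the same shares of all probes, and the endothelial and erythroid counts are no result about those lists. Bglap was among the fallen osteoblast markers by its dimmest probe alone (-1.69 in WT and -2.69 in KO), while its other 4 probes gave 0.33 to 0.41 in WT and -0.33 to -0.02 in KO. The part of these shifts in any chemokine change was not tested.

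**Figure D5:**
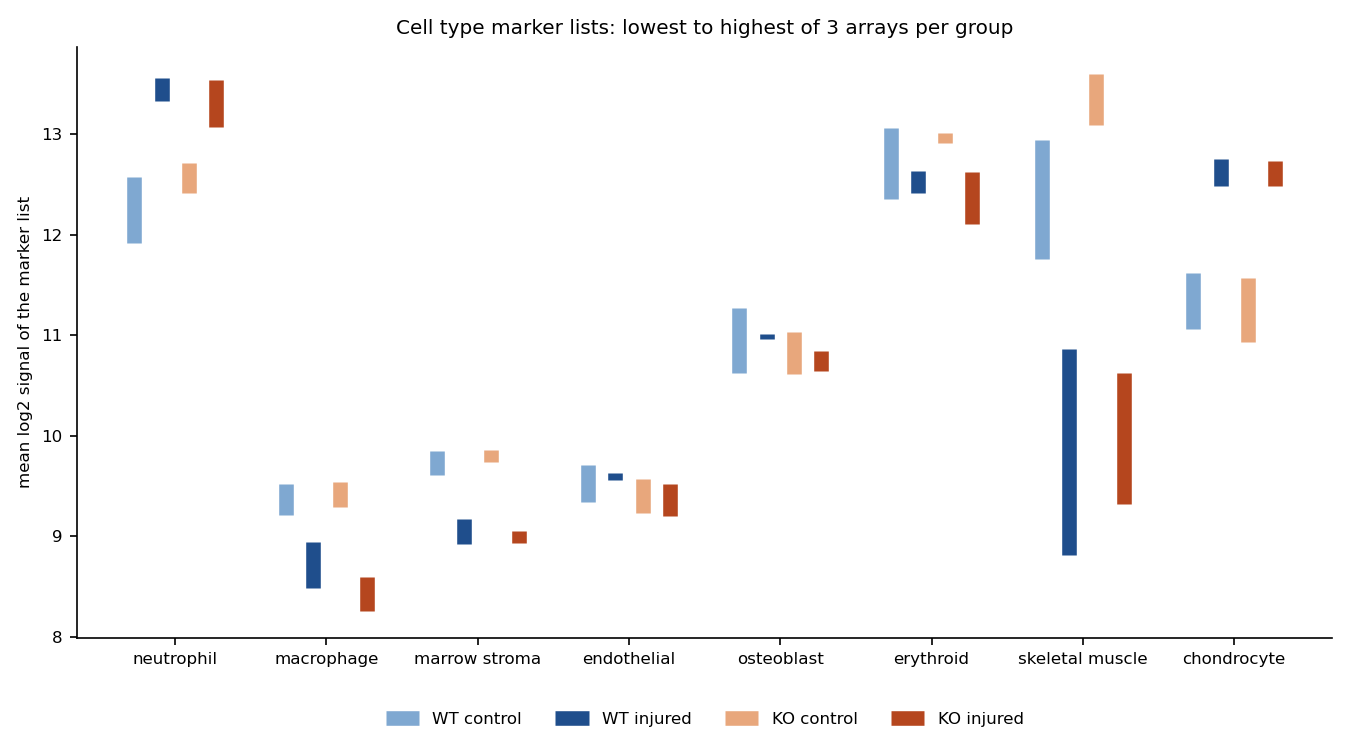
Mean log2 normalized signal (vertical axis) of the brightest probes of each cell type marker list, drawn as the range from the lowest to the highest of 3 arrays in each of the 4 groups. Neutrophil and chondrocyte lists are higher on injured arrays and macrophage, marrow stroma and skeletal muscle lists lower, in both genotypes.

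Genes whose pattern over the 12 arrays was most like that of a member were found by Pearson correlation, a description in which the points share their condition. For Cxcl1 these were Chac1, Slc25a33 and Slc27a4 (r = 0.994 each). For Cxcl2 they were Slc6a6, a taurine transporter, and the stress transcription factor Atf3 (r = 0.995 each), followed by E030034J16Rik. Cxcl9 was closest to Gas6, the ligand of Axl and Mertk (0.980), Ccdc3 (0.979) and Tspan17 (0.978). Cxcl10 was closest to Gnb1 (0.985), a clone named scl0004020.1_31 (0.984) and the NF-kB subunit Nfkb1 (0.982). For Cxcl12 probe 1 they were Slc52a3 (0.979), Denn2b and Parp14 (0.977 each), and for Cxcl16 they were Get1 (0.972), Notum (0.963) and Dgkh (0.955). Cxcl14 probe 1 had lower values, with Ergic1 (0.883), Sfxn3 (0.869) and Col16a1 (0.855).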

How the data were processed

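The deposited intensities are bead signals for 45281 probes, without background correction, each with a detection p-value deposited by the authors in steps of 1 in 936. The authors corrected these intensities with negative control probes, normalized them with vsn and deposited log2 values for 21004 probes, which were used as they stand; package versions are not given in the sources used here. Arrays have no read depth, and their number, 3 per group, limits the precision. Groups and replicate numbers follow the labels.

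Injured was compared with control within each genotype and KO with WT within each condition, each on its own 6 arrays, and the difference between the injury changes was fitted on all 12, with lmFit and eBayes of limma 3.58.1 (R 4.3.3) and Benjamini-Hochberg adjustment over 21004 probes. A probe passed with a fold above 2 and an adjusted p under 0.05, and the interaction by its adjusted p alone. Injury and genotype comparisons share arrays. A probe undetected on every array of a group has only a bound, taken per array as the higher of its own value and the lowest detected value. Replicate numbers paired the samples: same-numbered arrays of different groups deviated from their group means together in all 18 pairs (r from 0.153 to 0.390), against -0.289 to 0.0825 in the 36 other pairs. Deviations within a group sum to 0, so these ranges are not independent. Replicate number and label code number overlap in part and cannot be fully told apart. The main fits did not use the pairing, which enters only the fits with the replicate number as a block. On simulated data, 200 probes per draw over 5 draws were changed by 2 on the log2 scale, with independent noise and no replicate pairing. The WT injury fit recovered 91.5% of them and the interaction 78.8%. Smaller changes, such as the interaction estimates of the members, were not simulated, so these shares do not say how often such changes would be found.

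The members, gene lists and tests were chosen with earlier results of these data known. All members, receptors and other ligands with a probe in the table were named, up to 4 genes of each other partner list with the largest changes past the threshold and no overlap between groups, and the 3 probes most correlated with the main probe of each member. Cell type markers, and partner genes given for their detection or for probes that disagree, were named after their values were seen. Names were updated through a RefSeq table (GRCm38.p6), matching 14485 probes on accession, 1647 on current symbol, 1952 on a former symbol and 60 on gene ID; the remaining 2860 kept the deposited name. Promoter sequences were taken from RefSeq by symbol. Alternatives were other background corrections and normalizations, array centring, filters on dim probes, the replicate block, the label code number as a block, the methods' t-test, no fold limit, all 12 arrays in each fit, and each array left out.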

Additional observations from a re-analysis of the deposited data

How the results depend on the processing

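The number of CXC chemokine probes past the test stayed between 5 and 9 of 11 in WT and between 7 and 10 in KO over 10 alternatives each, and between 6 and 8 in WT and at 9 in KO with each array left out in turn. No change past the test reversed under any of them. The numbers pair the samples, and the replicate block changed 1 call among the member probes, that of Cxcl9 between genotypes in injured hips (1 of 11 probes against 0, adjusted p = 0.0376 against 0.21; over the 6 fits with 1 array left out and no block the adjusted p ran from 0.071 to 0.607); it called 188 of all probes in that comparison against 38, and 112 against 0 for the interaction. The fall of Cxcl9 in WT lost its call under the methods' t-test alone (adjusted p = 0.0716, range over all alternatives 0.000327 to 0.0716). Cxcl10 lost its WT call under quantile normalization with normexp correction (change 1.00), without background correction (0.44) and with normexp correction and all probes of the array (adjusted p = 0.13) and by the methods' t-test (adjusted p = 0.202). Under quantile normalization without background correction, Cxcl10 (0.72) and Cxcl14 probe 2 (0.97) lost their KO calls, and 1140 of all probes passed in WT and 1756 in KO, against 2669 and 3604 with normexp correction and the same normalization and 3086 and 3934 as deposited; the methods' t-test called 1624 in WT, and 5319 and 8045 passed with no fold limit. The mean of all probes moved the WT change of Cxcl12 from -0.85 to -2.0 and that of Cxcl14 from -0.24 to 0.35. Counts over all probes between genotypes rested on few arrays: 25 in control hips became 412 without WT control replicate 3 (the interaction 242), 38 in injured hips became 154 without WT injured replicate 1, 23 without WT injured replicate 2 and 64 without KO injured replicate 2, and the methods' t-test called 0 in both, with 1178 and 1959 at an unadjusted p under 0.05; the cause was not tested. Signal over background limits Cxcl10 and the control levels of Cxcl1 and Cxcl2.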
